A study of Mus musculus with 8 samples.

Results

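The genes described here encode the proteasome, taken as every gene symbol that begins with Psm, then a letter from a to g, then a digit. The rule found 43 of the 13661 genes named on the array, covered by 50 probes. Of these, 41 encode subunits, activators or assembly chaperones of the proteasome. The other two, Psmc3ip, a cofactor of meiotic recombination, and Psme3ip1, a binding partner of an activator, match by name alone. The animals were C57Bl/6 mice, 8 to 10 weeks of age, and RNA came from the entire heart. In the infarcted group (4 hearts) a permanent ligature closed a branch of the left coronary artery, and in the sham control group (4 hearts) the suture was placed but left untied. All animals were anaesthetised with ketamine and xylazine, and both groups had undergone surgery, so no unoperated heart was compared. Each heart was labelled red and hybridised to its own spotted array of long oligonucleotides against a green reference RNA pooled from adult mouse tissues. Whole hearts mix infarct, border and remote muscle, and the sources used here do not give the time of sampling.

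The proteasome is the barrel-shaped protease that degrades proteins tagged with ubiquitin. Its 20S core stacks rings of alpha subunits, which gate the entrance, around rings of beta subunits, a few of which cut. The 19S particle caps the core: its ATPases unfold the substrate, and its non-ATPase subunits bind and remove ubiquitin. Interferon induces alternative cutting subunits that form the immunoproteasome, which favours peptides for antigen presentation. In heart muscle the proteasome turns over contractile and damaged proteins. Interferon and the factor Nfe2l1, which drives constitutive subunit genes when proteasome activity is short, are its best known transcriptional regulators.

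Levels below are on a log2 scale on which 0 is a median within the block in which a probe was printed, on that array. The median is over the spots with a value, a set that differs between arrays. The deposited values hold 1 dye channel, and which one could not be settled, so the heart channel is assumed. Genes of heart muscle cells were bright, with a median of 6.02 over 46 values of 9 genes. Liver genes, from a tissue of the reference pool, had a median of 2.96 over 48 values of 6 genes. Brain and kidney genes were dim. Brain genes had a median of -0.43 over 24 values, and 2 of the 5 on the array had no value. Kidney genes had a lower median over 12 values, and 3 of the 5 on the array had no value. The mean level of those liver genes ran from 2.88 to 3.55 on sham and from 1.80 to 2.45 on infarcted arrays, with no overlap, and their part in the proteasome values was not tested. Between 19704 and 24819 of 33600 spots had a value on an array. Sham control replicate 4 had the fewest, and it was the lowest sham array for 17 of 39 proteasome genes with a value on all 8 arrays and the highest for 0. Infarcted replicate 2 was likewise the lowest infarcted array for 16 of these genes and the highest for 3. Such counts were not made over all features, so whether they are particular to proteasome genes is not known. For arrays, their number limits the precision. P-values measure the spread between hearts together with that between arrays.

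No proteasome gene passed the test between infarcted and sham hearts. With limma and Benjamini-Hochberg adjustment over 18044 features, 0 of 41 tested proteasome genes had an adjusted p under 0.05, against 0.549% of all features in both directions, 0.493% lower and 0.0554% higher in infarcted hearts. The count over all features, 99, was 615 without sham control replicate 4 and between 3 and 30 without any other single array. At an unadjusted p under 0.05 there were 2 proteasome genes, Psmd4 and Psma1, where 12.3% of all features lay below that value. With arrays centred on their medians 33 of 41 differences were negative, with a median of -0.16, beside 10371 of 18044 features and a median of -0.08, but with quantile normalization 14 were negative and the median was 0.10. Without Psmd4 the 40 differences ran from -0.56 to 0.35, or 0.678 to 1.27 times the sham signal. The 2 groups did not overlap for 1 proteasome gene in the lower direction, Psma1, and for 0 in the higher direction. Over all features these shares were 6.27% and 2.62%.

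The 95% interval of the difference lay within 1 log2 unit on either side of 0 for 29 of 41 genes, and its half-width was 0.53 at the median. For a gene with that half-width, a smaller difference could not be told from 0 with 4 arrays a group. The intervals are not adjusted over features. Larger differences also failed after adjustment, such as -0.56 for Psma1 (limma adjusted p = 0.347). In whole hearts, fewer cells of a type and less RNA per cell cannot be told apart. Of the 41 genes 26 had a mean level over 2, and 19 over 3. Mean levels ran from -2.10 for Psma8 to 4.23 for Psmb5. The recovered scanner signals of the proteasome probes lay between 54 and 17670, below the ceiling of 65536 steps.

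**Figure D1:**
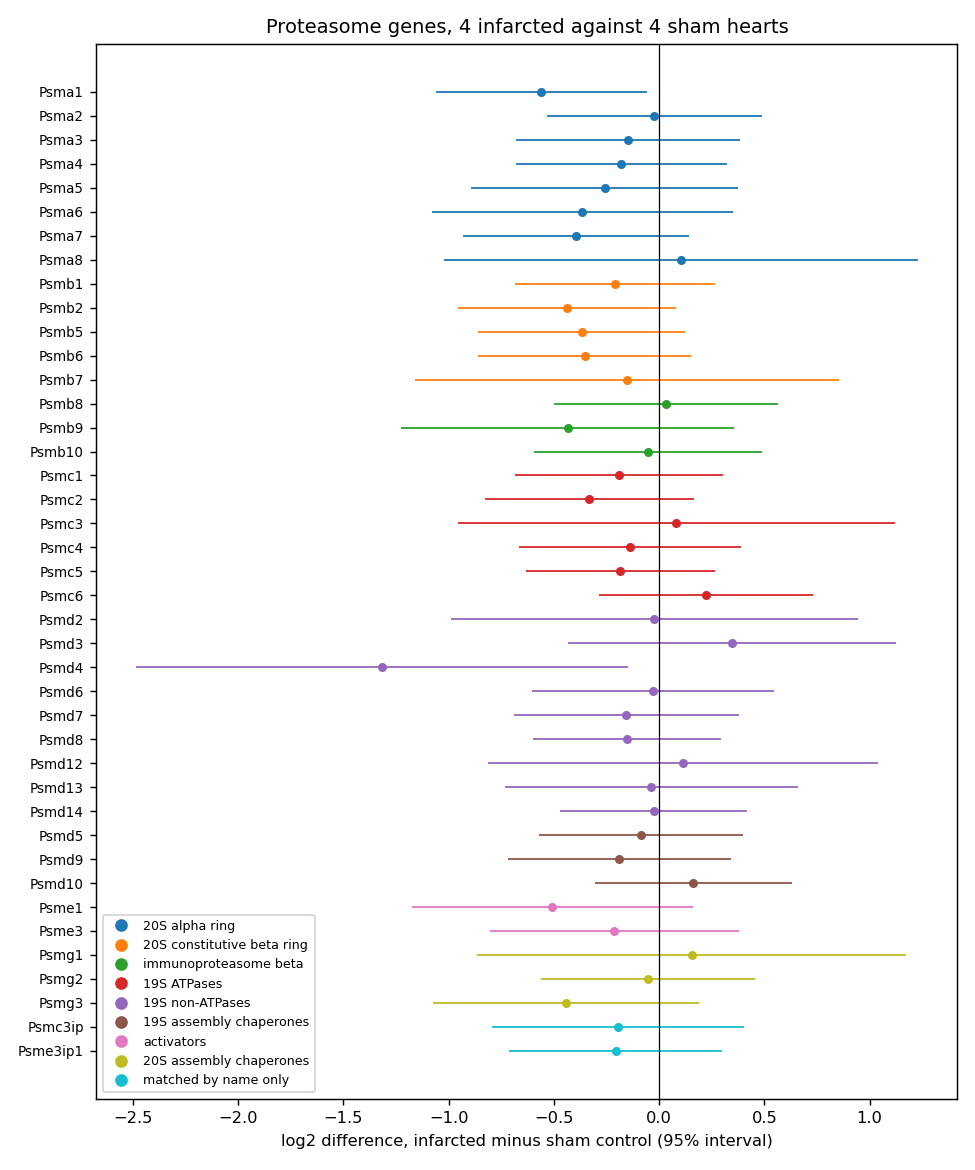
Log2 difference between 4 infarcted and 4 sham control hearts for the 41 tested proteasome genes, coloured by class, with 95% intervals from limma. Of the 41 points 33 lie left of 0, only the intervals of Psma1 and Psmd4 leave 0 out, and neither gene passed after adjustment.

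In the alpha ring 7 of 8 genes had negative differences, with a median of -0.22 that became 0.08 with quantile normalization. Psma1 had the most negative difference of the ring. Its sham values were 3.83, 3.14, 3.63 and 3.34, and its infarcted values 2.78, 2.99, 2.86 and 3.07. All 4 infarcted arrays therefore lay below all 4 sham arrays. The difference was -0.56 ± 0.22 (SE, n = 4 each, limma adjusted p = 0.347). Psma7 had sham values of 3.96, 3.81, 3.93 and 3.81 and infarcted values of 3.55, 3.18, 4.01 and 3.20. Infarcted replicate 3 was the highest of all 8 arrays, and the other 3 infarcted arrays lay below every sham array (difference -0.40 ± 0.24 SE, adjusted p = 0.56).

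Psma6 had sham values of 4.25, 4.15, 4.36 and 3.05 and infarcted values of 3.77, 3.34, 3.34 and 3.91. Sham control replicate 4 was the lowest of the 8 arrays and the only sham array below the infarcted ones. The difference was -0.36 ± 0.32 (SE, limma adjusted p = 0.711) with it and -0.67 ± 0.24 without it (adjusted p = 0.216). The differences (± SE) of Psma5, Psma4 and Psma3 were -0.26 ± 0.28, -0.18 ± 0.23 and -0.15 ± 0.24. Psma2, at -0.02 ± 0.23, had nearly equal means of 3.17 and 3.15. Psma8, the alpha subunit known from testis, had the lowest level, with means of -2.16 from 3 sham values and -2.06 from 4 infarcted values.

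In the constitutive beta ring all 5 tested genes had negative differences, with a median of -0.35 that became 0.23 with quantile normalization, and no gene passed. Psmb4 had no value on any array. Psmb3 had -0.62 and -0.87 on 2 sham arrays and 1.46 on 1 infarcted array, too few for the test. Psmb2 had sham values of 3.91, 3.90, 3.24 and 3.37 and infarcted values of 3.26, 3.07, 3.25 and 3.10. Sham replicates 1, 2 and 4 stood above all infarcted arrays, while replicate 3 lay inside their range (difference -0.44 ± 0.23 SE, limma adjusted p = 0.491). Psmb1, a beta subunit that does not cut, had a difference of -0.21 ± 0.21.

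The 3 constitutive cutting subunits have counterparts in the immunoproteasome: Psmb8 takes the place of Psmb5, the chymotrypsin-like site, Psmb9 that of Psmb6, the caspase-like site, and Psmb10 that of Psmb7, the trypsin-like site. The 100 bases before the RefSeq start are shown for 2 of these pairs, because Nfe2l1 and interferon are known to drive such genes; no promoter of Psmb7 was matched. Capitals mark matches to the core of the antioxidant response element (TGACNNNGC, bound by factors such as Nfe2l1) in Psmb5 and Psmb6, to the gamma-activated site of interferon signalling (TTCNNNGAA) in Psmb8, and to a GC box (GGGCGG) and a reversed CCAAT box in Psmb9. Each runs 5′ to 3′ on the gene's strand of GRCm38.p6: Psmb5 at chr14:54617996-54618095 (minus), Psmb6 at chr11:70525257-70525356 (plus), Psmb8 at chr17:34198095-34198194 (plus) and Psmb9 at chr17:34187331-34187430 (minus).
Psmb5: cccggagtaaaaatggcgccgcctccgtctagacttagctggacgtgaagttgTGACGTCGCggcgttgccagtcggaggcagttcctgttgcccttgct
Psmb6: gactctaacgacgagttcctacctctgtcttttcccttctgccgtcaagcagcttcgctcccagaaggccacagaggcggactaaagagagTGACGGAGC
Psmb8: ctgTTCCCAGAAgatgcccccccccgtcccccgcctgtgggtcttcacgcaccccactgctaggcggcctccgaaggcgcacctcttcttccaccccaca
Psmb9: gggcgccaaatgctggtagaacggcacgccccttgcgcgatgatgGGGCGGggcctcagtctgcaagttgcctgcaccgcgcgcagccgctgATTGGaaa
The match begins 47 bases before the start in Psmb5, 9 in Psmb6 and 97 in Psmb8. A match describes letters and shows no binding.

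Psmb5 had sham values of 4.54, 4.65, 4.46 and 3.99 and infarcted values of 4.21, 3.96, 4.06 and 3.94. Sham replicates 1 to 3 lay above every infarcted array, and sham replicate 4 among them. The difference was -0.37 ± 0.22 (SE, limma adjusted p = 0.557), and 0.23 ± 0.21 with quantile normalization. Psmb6 had 4.12, 4.36, 4.09 and 3.92 in sham and 3.94, 3.34, 3.93 and 3.86 in infarcted hearts. Sham replicate 4 lay just below infarcted replicates 1 and 3, and infarcted replicate 2 below all arrays (difference -0.35 ± 0.23 SE, adjusted p = 0.587).

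Psmb7 had 2.39, 4.31, 4.15 and 4.06 in sham and 2.74, 3.86, 3.75 and 3.95 in infarcted hearts. The array numbered 1 was far below the others in both groups. With all arrays the difference was -0.15 ± 0.45 (SE, limma adjusted p = 0.928), and without both arrays numbered 1 it was -0.32 ± 0.23 (adjusted p = 0.716).

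Of the 3 immunoproteasome genes analysed here, 0 passed in either direction, and their median difference was -0.05. Psmb8 had 1.65, 1.50, 1.24 and 1.34 in sham and 1.67, 1.06, 1.82 and 1.31 in infarcted hearts. The infarcted arrays spanned wider than the sham range on both sides (difference 0.03 ± 0.24 SE, limma adjusted p = 0.975). Psmb10 had 2.17, 1.30, 1.75 and 1.96 in sham and 1.81, 1.50, 1.88 and 1.79 in infarcted hearts, so the infarcted values lay wholly inside the sham range (difference -0.05 ± 0.24 SE, adjusted p = 0.959). The 95% intervals reached up to 0.56 for Psmb8 and 0.49 for Psmb10, so an increase of 2-fold, 1 log2 unit, lay outside both.

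Psmb9 had 3 probes, and its gene value averaged them. It was 1.94, 0.53, 1.41 and 1.01 in sham and 1.05, 0.68, 1.27 and 0.14 in infarcted hearts. The lowest value, on infarcted replicate 4, is the only one that includes a dim probe with a value of -1.84 there and none elsewhere. The difference was -0.43 ± 0.35 (SE, limma adjusted p = 0.687) for the gene, but -0.17 ± 0.40 and -0.20 ± 0.25 for its 2 complete probes.

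**Figure D2:**
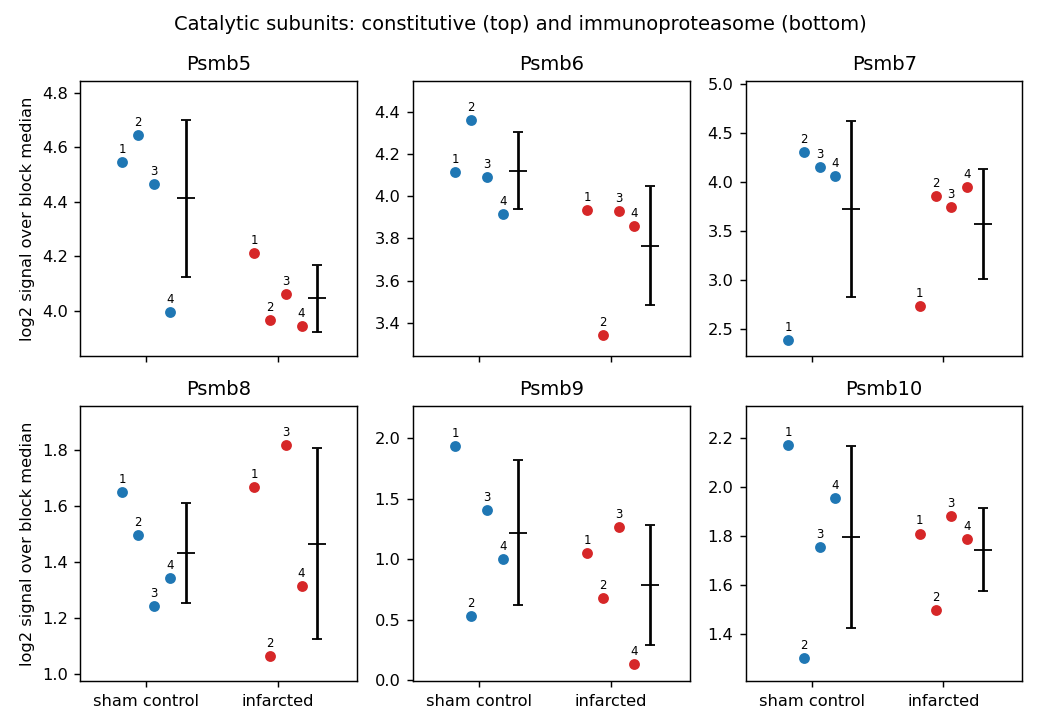
Log2 signal over the block median of the 6 cutting subunits on each array, numbered by replicate, with mean and SD (n = 4). The arrays numbered 1 are the lowest of both groups for Psmb7, at 2.39 and 2.74, and the groups overlap in all 6 panels.

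The change of each immunoproteasome subunit against its constitutive counterpart was compared within arrays, over 3 pairs. Psmb8 minus Psmb5 was -2.89, -3.15, -3.22 and -2.65 in sham and -2.54, -2.90, -2.24 and -2.63 in infarcted hearts. Infarcted arrays 1, 3 and 4 were above every sham array, and array 2 was level with sham array 1. The shift was 0.40, from -2.98 ± 0.26 to -2.58 ± 0.27 (SD, n = 4 each; exact two-sided permutation test p = 0.0857, 0.257 adjusted over the pairs). The smallest p this design allows is 0.0286. With quantile normalization the same shift was -0.13, and with loess -0.11, so its direction depends on the scaling. Psmb9 minus Psmb6 shifted by -0.08 and Psmb10 minus Psmb7 by 0.10 (exact permutation p = 0.943 and 0.886, n = 4 each, both 0.943 adjusted). These also turned: the first was 0.17 with only probes complete on all arrays, and the second was -0.21 with quantile normalization. The first was larger in size with quantile normalization, at -0.54, and with loess, at -0.56 (exact permutation p = 0.257 and 0.229, both 0.686 adjusted). Those values include the dim Psmb9 probe on infarcted replicate 4.

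Markers of macrophages and monocytes, cells that carry the immunoproteasome, were read beside these values. Of 9 tested marker genes 8 had positive differences, with a median of 0.85, and 0 passed after limma adjustment. Their mean level on an array ran from -0.44 to -0.05 in sham and from 0.45 to 0.94 in infarcted hearts, with no overlap. For lymphocyte markers 4 of 5 were positive with a median of 0.02, array means ran from -1.36 to 0.003 in sham and from -0.88 to -0.06 in infarcted hearts, and Cd4 had no value. Their part in the proteasome values was not tested.

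The partners of the immunoproteasome in antigen processing did not pass either. Of 11 tested genes 0 passed in either direction, 8 were negative, and the median was -0.08, or 0.26 with quantile normalization. B2m, the light chain of class I molecules, had -0.70 ± 0.25 (SE, limma adjusted p = 0.29) and 0.07 with quantile normalization. Tapbp, which loads peptide, had -0.79 ± 0.43 (adjusted p = 0.505) and -0.64 with quantile normalization. The class I heavy chain H2-K1 had -0.17 ± 0.28 (adjusted p = 0.858) and 0.49 with quantile normalization. The peptide transporter genes Tap1 and Tap2 stood at 0.03 ± 0.25 and -0.14 ± 0.23, and the interferon-responsive factor Irf1 at 0.18 ± 0.33.

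The 19S ATPases had a median of -0.16, with 4 of 6 negative, and 0.14 with quantile normalization. Psmc2 had 4.10, 3.88, 4.17 and 3.66 in sham and 3.94, 3.41, 3.56 and 3.59 in infarcted hearts. Infarcted array 1 lay inside the sham range and the other 3 below it (difference -0.33 ± 0.22 SE, limma adjusted p = 0.611; 0.13 with quantile normalization). Psmc6 had a positive difference. Its values were 3.17, 3.40, 3.59 and 2.93 in sham and 3.63, 3.23, 3.49 and 3.62 in infarcted hearts, with 2 infarcted arrays above all sham arrays. The difference was 0.22 ± 0.23 (SE, adjusted p = 0.76) with median centring, 0.56 ± 0.22 with quantile normalization (adjusted p = 0.443) and 0.61 ± 0.20 with loess (adjusted p = 0.256).

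For Psmc3 the sign depended on single arrays of both groups. It had 3.87, 3.99, 4.14 and 1.97 in sham and 3.35, 3.25, 3.57 and 4.14 in infarcted hearts. Sham control replicate 4 was far below every other array. The difference was 0.08 ± 0.46 (SE, limma adjusted p = 0.967) with all arrays and -0.43 ± 0.27 without that array (adjusted p = 0.516). Without infarcted replicate 4, the highest infarcted array, it was -0.11 ± 0.51 (adjusted p = 0.968). Psmc1, Psmc5 and Psmc4 had -0.19 ± 0.22, -0.18 ± 0.20 and -0.14 ± 0.24. The 3 probes of Psmc4 all had negative differences, from -0.31 to -0.02.

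Among the 19S non-ATPases 7 of 9 differences were negative with a median of -0.03, or 0.17 with quantile normalization. Both ends of the family's range lie here. Psmd4, a ubiquitin receptor, had the lowest difference of all proteasome genes at -1.32 ± 0.52 (SE, limma adjusted p = 0.345), but this value comes from its probes. It has a bright probe with a value on all 8 arrays and a dim probe near -2 that lacked a value on sham replicates 2 and 4. The averaged sham values were therefore 0.60, 3.16, 1.04 and 2.62, high exactly where the dim probe was missing. The infarcted values were 0.67, 0.33, 0.30 and 0.86, all from both probes. The bright probe alone gave 3.18, 3.16, 3.22 and 2.62 in sham and 3.12, 2.82, 2.92 and 3.40 in infarcted hearts, a difference of 0.02 ± 0.24 (adjusted p = 0.981).

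Psmd3, a scaffold subunit of the lid, had the highest difference of the family. Its values were 2.04, 2.74, 3.37 and 1.67 in sham and 2.85, 2.69, 2.71 and 2.95 in infarcted hearts. The infarcted arrays lay close together inside a wide sham range (difference 0.35 ± 0.35 SE, limma adjusted p = 0.755). Psmd14, the deubiquitinase of the lid, had the narrowest 95% interval of the family, with a half-width of 0.443. Its levels were 1.92 ± 0.13 in sham and 1.89 ± 0.14 in infarcted hearts (SD, n = 4 each). Its difference was -0.03 ± 0.20. Psmd2, a base scaffold, had a difference of -0.02 ± 0.43 and sham values from 2.60 to 4.64. Psmd7, Psmd8, Psmd6 and Psmd13 had -0.16, -0.15, -0.03 and -0.04, and Psmd12 had 0.11 ± 0.42.

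The 19S assembly chaperones Psmd5, Psmd9 and Psmd10 had differences of -0.09, -0.19 and 0.16. Psmd10, also known as gankyrin, had 0.36, -0.14, -0.04 and 0.05 in sham and 0.38, 0.13, 0.07 and 0.29 in infarcted hearts. Infarcted replicate 1 lay just above the sham range and the other 3 within it (difference 0.16 ± 0.21 SE, limma adjusted p = 0.82). The mean of the 3 chaperones was 0.32 ± 0.10 in sham and 0.29 ± 0.05 in infarcted hearts (SD, n = 4 each). Of the chaperones of the 20S core, Psmg1 and Psmg2, which work as a pair, had differences of 0.16 ± 0.45 and -0.05 ± 0.23. Psmg1 had 0.06, 1.99, 1.80 and 1.34 in sham hearts and 1.35, 1.77 and 1.25 on infarcted arrays 2 to 4. Without sham replicate 1, the low array, its difference was -0.26. Psmg3 had 1.05, 0.06, 0.39 and 0.27 in sham and 0.09, -0.16, -0.37 and 0.44 in infarcted hearts. Only 2 infarcted arrays lay below all sham arrays (difference -0.44 ± 0.28 SE, limma adjusted p = 0.588).

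Of the activators, 2 were tested and both differences were negative. Psme1, which forms the interferon-inducible 11S cap, had averaged values of 3.91, 3.54, 4.05 and 2.79 in sham and 2.76, 3.20, 3.08 and 3.23 in infarcted hearts. Sham replicate 4 was the only sham array within the infarcted range. The difference was -0.51 ± 0.30 (SE, limma adjusted p = 0.547), and -0.77 ± 0.24 without sham control replicate 4 (adjusted p = 0.147). Its probes differed in size. One had 4.29, 4.07, 4.08 and 3.45 in sham and 3.00, 3.20, 3.37 and 3.36 in infarcted hearts, with no overlap and a difference of -0.74 ± 0.24 (adjusted p = 0.228), while the other had -0.28 ± 0.38 with overlapping groups. Psme3, the nuclear activator, had -0.21 ± 0.26. The name matches Psmc3ip and Psme3ip1 had -0.20 ± 0.27 and -0.21 ± 0.23. Psme2, Psme4, Psmf1, Psmb11, Psmd1, Psmd11 and Psmg4 were not analysed here.

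Set beside each other, the classes differed within arrays by amounts that overlapped between sham and infarcted hearts. Over genes with a value on all 8 arrays, the mean level of the 12 constitutive 20S genes was 3.55, 3.86, 3.78 and 3.53 in sham and 3.31, 3.28, 3.47 and 3.51 in infarcted hearts. The infarcted arrays were all below the sham arrays, by a mean of -0.29 with median centring; the medians of both rings turned positive with quantile normalization, as given above. The 15 genes of the 19S particle had 2.77, 2.88, 3.09 and 2.52 in sham and 2.68, 2.60, 2.67 and 2.83 in infarcted hearts, with overlapping groups and a mean difference of -0.12. Psmd4 enters this mean with its averaged values, whose difference of -1.32 comes from its dim probe, where its bright probe had 0.02. The 19S means and their difference carry that effect. The 3 immunoproteasome genes had 1.92, 1.11, 1.47 and 1.43 in sham and 1.51, 1.08, 1.66 and 1.08 in infarcted hearts, also overlapping, with a mean difference of -0.15. Psmb9 likewise enters with its averaged values, which include a dim probe on infarcted replicate 4 only.

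Within an array, the 20S mean minus the 19S mean went from 0.86 ± 0.16 to 0.70 ± 0.08 (SD, n = 4 each), and the groups overlapped. That shift of -0.17 was -0.05 with quantile normalization and -0.26 with only probes complete on 8 arrays. The last setting leaves out the incomplete dim probes of Psmd4 and Psmb9, which the other settings include. The 20S mean minus the immunoproteasome mean shifted by -0.14 and the 19S mean minus the immunoproteasome mean by 0.03. With quantile normalization these were 0.19 and 0.23, with overlapping groups in each case. No test was run on class means, since the classes are sets of genes and not replicates.

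**Figure D3:**
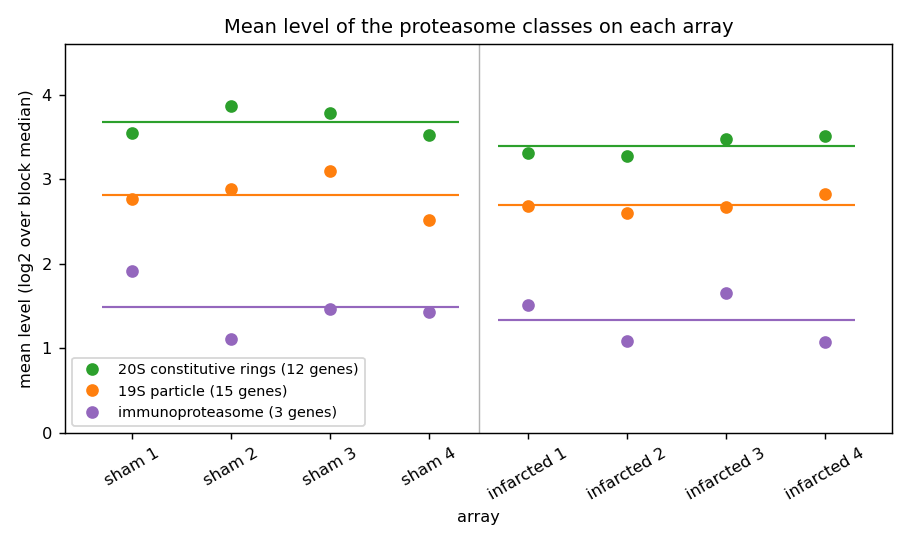
Mean level (log2 over block median) on each array of the constitutive 20S rings, the 19S particle and the immunoproteasome, over genes with a value on all 8 arrays, with horizontal lines at the group means. The 20S mean is 3.28 to 3.51 on infarcted and 3.53 to 3.86 on sham arrays, and the other two classes overlap. The 19S mean includes the averaged values of Psmd4, which depend on its dim probe.

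The differences of all features varied with signal level. With median centring, the 874 features at a level from 3 to 4 had a median difference of -0.30, and the 668 from 4 to 5 had -0.62, whereas the 3576 from 0 to 1 had -0.02. The 17 proteasome genes at a level from 3 to 4 had a median of -0.19, and the 2 from 4 to 5, Psma3 and Psmb5, had -0.26. The 7 genes from 2 to 3 had -0.04 where all features had -0.12, and the 7 from 0 to 1 had -0.19 against -0.02. Of 41 genes 21 lay above the median difference of their level range, and the median distance from it was 0.02.

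Quantile normalization, which gives all arrays 1 common distribution, turned the sign of 19 of 41 genes, and 22 kept theirs. Of the 41 genes 27 were then positive and 14 negative, with a median of 0.10, where all features had 0.002. Loess against the mean array gave 28 positive and 13 negative with a median of 0.12. Again 0 genes passed (lowest limma adjusted p = 0.443 and 0.256), with 2 and 1 at an unadjusted p under 0.05. Of the 41 signs 20 therefore depend on which of the 3 scalings was used. Under all 3 scalings 13 genes were negative. Psma1, Psmb2, Psmb9, Psmd4, Psme1 and Psmg3 among them stood at -0.29, -0.11, -0.40, -1.17, -0.18 and -0.43 with quantile normalization. Psmd4 and Psmb9 were averaged with an incomplete dim probe under every scaling, so their shared sign shows no stability. With median centring the bright Psmd4 probe had 0.02 and the complete Psmb9 probes -0.17 and -0.20. Psmd3, Psmc6, Psmc3, Psmd12, Psmd10, Psmg1, Psma8 and Psmb8 were positive under all 3 scalings. With median centring, some of these signs turned when a single array was left out. Without sham control replicate 1, Psmd12 had -0.24 and Psmg1 -0.26, and without sham control replicate 4 Psmc3 had -0.43. Psma8 had -0.07 without infarcted replicate 1, and Psmb8 -0.09 without infarcted replicate 3. Psmd3, Psmc6 and Psmd10 stayed positive whichever array was left out.

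**Figure D4:**
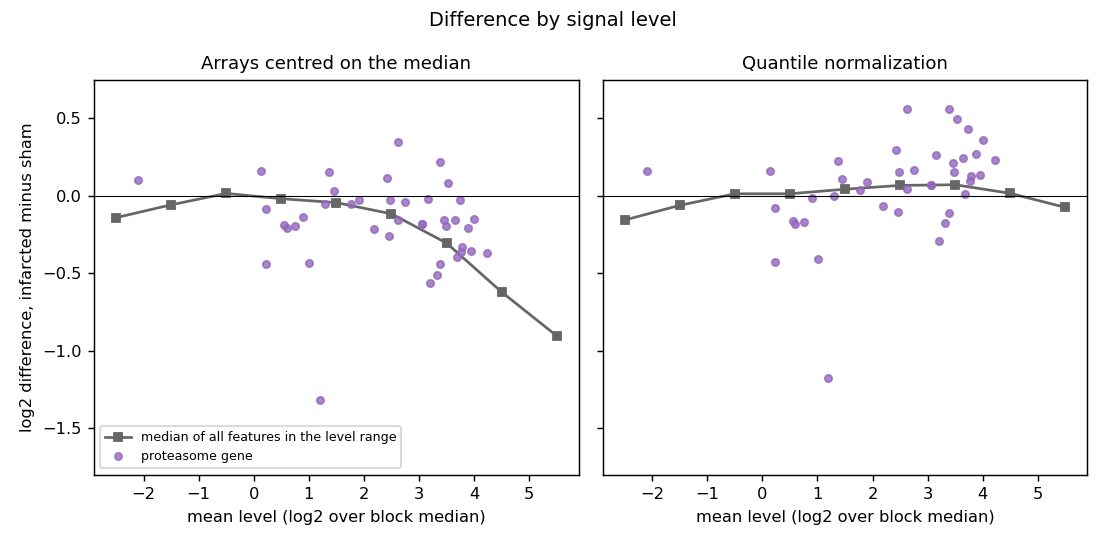
Log2 difference between infarcted and sham hearts against mean level for 41 proteasome genes (points), with the median of all features in each level range (line), after median centring (left) and quantile normalization (right). On the left the line drops to -0.62 at a level of 4 to 5 and most genes lie under 0, and on the right the line stays near 0 and 27 of 41 genes lie above 0.

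Proteasome genes varied more among sham than among infarcted hearts, as did the array as a whole. Of the 39 genes with all values 29 had the larger SD in sham hearts, with median SDs of 0.34 and 0.23. Over all 15219 complete features 68.9% had the larger SD in sham hearts, with medians of 0.44 and 0.32. Apart from Psmd4, whose averaged SD of 1.23 mixes arrays with and without its dim probe (0.284 for the bright probe), the genes with the widest sham spread were Psmc3 and Psmd2, with SDs of 1.02 and 0.93, and the narrowest was Psma7 with 0.08.

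Other genes that work with the proteasome did not pass either. Of 16 tested maturation factors, receptors, shuttles and regulators 0 passed in either direction, 8 were negative and 8 positive, and the median was -0.02, or 0.22 with quantile normalization. Sem1, a small 19S lid subunit with a name outside the Psm series, had 5.02 in sham and 4.23 in infarcted hearts, a difference of -0.79 ± 0.24 (SE, limma adjusted p = 0.195) with no overlap of the groups, and -0.07 with quantile normalization. Zfand5, a ubiquitin-binding protein that stimulates the proteasome, had -0.87 ± 0.37 (adjusted p = 0.375), also with no overlap, and -0.76 with quantile normalization. Its value on infarcted replicate 4 was -0.71, where the other infarcted arrays had 0.72 to 0.85. Over all features the share without overlap in the lower direction was 6.27%. Usp14, a deubiquitinase on the 19S particle, had 0.55 ± 0.28 (adjusted p = 0.479). Pomp, which guides assembly of the 20S core, stood at -0.06 ± 0.22 and Nfe2l1 at -0.26 ± 0.32, and with quantile normalization at 0.41 and 0.28. The 5 fixed genes of ubiquitin itself and its activation were not analysed here.

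The same motifs were counted over the family. RefSeq promoters of GRCm38.p6, from 250 bases before to 50 after the start, were found for 35 of the 43 genes. The core TGACNNNGC, searched on both strands, was in 14.3% of them and in 14.0% of all 27025 genes of the table, and its other form TGAGNNNGC in 31.4% and 19.8%. Tested genes with either form had a median difference of -0.20 (13 genes) and those without -0.15 (20 genes). The gamma-activated site was in Psmb8, Psmd2 and Psmg1, 8.57% of the genes against 9.55% of the table. The CCAAT box was in 42.9% against 41.1%, and the GC box in 54.3% against 38.2%.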

How the data were processed

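The deposited table holds log2 values. How the authors made them (software, background, flagging) is not given in the sources used here. Within each of 48 blocks of 700 spots, 2 to the power of the value times 1 constant gave whole numbers from 42 to 65466 (tolerance 0.001) for 100.0% of values, and block medians were 0. The values were therefore read as 1 channel's signal over its block median. A ratio of dyes had been assumed when the tests were set, and the tests were run unchanged. Probes were named by the platform annotation: 18179 had 1 gene symbol, 87 several, and 15334 were unlisted. Probes of 1 gene were averaged per array. Arrays were centred on the median. Features with at least 3 of 4 values in each group were fitted by limma (version 3.58.1, R 4.3.3; functions lmFit and eBayes), a step checked on simulated data, with p-values adjusted by Benjamini-Hochberg.

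The members, lists and rules were chosen with earlier results of these data known. Genes given by array were the cutting subunits, Psme1, the 12 with the smallest p and the 4 with the largest positive difference, plus Psmc3 and the single probes, which were chosen after their values were seen. Of the antigen processing and proteasome partner lists the 3 genes with the smallest p were named, and of marker lists none was named for its p, with Tap1, Tap2, Irf1, Pomp and Nfe2l1 chosen after their values were seen. The alternatives were other scalings, filters, probe rules, variance models, array weights, a replicate block and left-out arrays.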

Additional observations from a re-analysis of the deposited data

Results flagged for a closer look

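In 8 of 80 groups of 4 arrays, 1 array lay far from the other 3. For independent, normally distributed values the rule flags about 1 group in 20 (5%), and several of these genes share an array. The share over all features was not counted, so the flags cannot be read as particular to proteasome genes. On sham control replicate 4, Psma6 was 3.05 where the others had 4.15 to 4.36, Psmc3 was 1.97 where they had 3.87 to 4.14, and Psmd6 was 1.89 where they had 2.62 to 2.76. On sham control replicate 1, Psmb7 was 2.39 against 4.06 to 4.31 and Psma5 was 2.03 against 2.72 to 2.81. Psmb7 was also low on infarcted replicate 1, at 2.74 against 3.75 to 3.95. On infarcted replicate 2, Psmb1 was 3.56 against 3.84 to 3.86 and Psmb6 was 3.34 against 3.86 to 3.94. The cause was not tested.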

How the results depend on the processing

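Under 20 alternatives, 0 proteasome genes passed the limma test at adjusted p 0.05 in each, and of 626 recomputed values 554 kept their direction and side of the threshold or stayed within the replicate spread, 42 changed sign and 30 moved further. Of the 626, 184 equalled the value reported and so show no stability: array medians were already 0, so omitting the centring changed 0 values, and the other variance model and the looser filter mostly leave differences as they are. The 2 sparsest sham arrays are those with the fewest measured spots. The lowest adjusted p of any named gene was 0.0698, for Psme1 at -0.91 without the 2 sparsest sham arrays. The causes were not tested. With quantile normalization and with loess, the median over the family was 0.10 and 0.12, the alpha ring 0.085 and 0.12, the constitutive beta ring 0.23 and 0.21, the ATPases 0.14 and 0.18 and the non-ATPases 0.17 and 0.21. In the same order of scalings, Psmb8 minus Psmb5 was -0.13 and -0.11, Psmb10 minus Psmb7 -0.21 and -0.25, Psma6 0.10 and 0.11, Psma7 0.014 and 0.056, Psmb10 0.038 and 0.047, Psmb5 0.23 and 0.21, Psmb6 0.14 and 0.16, Psmb7 0.25 and 0.29, and Psmc2 0.13 and 0.15. The activators were at -0.10 with loess. The count over all features, 99, was 32 with quantile normalization, 506 with array weights, 231 with only probes complete on 8 arrays, 1120 without the 2 sparsest sham arrays and 1 without both arrays numbered 1. With 1 probe per gene Psmb9 minus Psmb6 was 0.15 and Psmd4 0.024, and with complete probes 0.17 and 0.025. The non-ATPases were at -0.22 with array weights. Without the 2 sparsest sham arrays they were at -0.22, the 19S chaperones at 0.062, Psmb10 minus Psmb7 at -0.52 and Psmb7 at 0.30. Without both arrays numbered 1, Psmb9 minus Psmb6 was 0.13, Psmb10 0.051 and Psmg1 -0.26. The use of complete probes alone and the omission of both arrays numbered 1 were chosen after seeing the data.

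Leaving out each array in turn gave 3 to 615 called features, medians of -0.23 to -0.11 for the family, -0.12 to 0.041 for the 19S chaperones and -0.35 to 0.048 for the 20S chaperones, and shifts of -0.39 to 0.17 for Psmb9 minus Psmb6 and -0.25 to 0.67 for Psmb10 minus Psmb7. Psmb7 ran from -0.60 to 0.12, Psmb8 from -0.085 to 0.17, Psmb10 from -0.22 to 0.073 and Psmg1 from -0.26 to 0.39. Whether the replicate numbers pair the arrays could not be settled from so few arrays. The correlations of same-numbered deviations were 0.018, 0.298, -0.074 and -0.178 over all features, and 0.481, 0.107, -0.118 and -0.185 over the proteasome genes. Different-numbered arrays gave -0.218 to 0.286 and -0.395 to 0.295. The highest value of each set thus came from a same-numbered pair, but other same-numbered pairs were negative. With the replicate block, 1 feature passed, the family's median was -0.18 and Psmg1 was -0.26. The pair differences were not run with the block, the weights or the trend.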

Other observations

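A few proteasome genes were low on the arrays numbered 1 of both groups, a pattern seen only after the values were examined. Besides Psmb7, the 19S subunit Psmd12 had 1.31 on sham and 1.67 on infarcted array 1, where the other arrays had 2.28 to 3.11 and 2.67 to 2.89. Psma5 had 2.03 and 1.86, and Psma3 had 3.57 and 3.72, each the lowest value of its group. The assembly chaperone Psmg1 had 0.06 on sham array 1, against 1.34 to 1.99 on the other sham arrays, and no value on infarcted array 1. Psma1 had its highest sham value, 3.83, on array 1, so the pattern does not extend to the whole family. The probes of Psmb7, Psma5, Psmd12 and Psmg1 lay in blocks 45, 46, 48 and 44 of the 48 printed. Those of Psma1 and Psma3 lay in blocks 47 and 16. A part of the block in these values was not tested.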
